A study of Homo sapiens with 9 samples.

Results

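The nuclear genes of respiratory complexes I to V are 88 of the 61806 genes in the deposited table, and were chosen by a rule on gene symbols, which was set with earlier results of these data known. Of the 88, 38 belong to complex I, 4 to complex II, 10 to complex III, 17 to complex IV and 19 to complex V. NDUFA4 is grouped with complex I by its symbol, although its protein is known as a subunit of complex IV. Messenger RNA was sequenced from 786-O cells, an established human line derived from clear cell renal carcinoma, in which VHL is not functional. TRIM28 knockdown, PARP1 knockdown and control made 3 groups of 3 libraries, and the control cells received a negative control. TRIM28 is the corepressor partner of KRAB zinc finger proteins, and PARP1 makes poly(ADP-ribose) chains, best known at broken DNA. All 9 libraries are labelled wild type in genotype and carry 1 batch label. The labels name siRNA in some fields and shRNA in another, call the control parental in the extraction text, and do not say that replicates were separate cultures, so the p-values rest on the spread among these libraries alone, and that spread may be technical.

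The respiratory complexes sit in the inner mitochondrial membrane. Complexes I and II pass electrons from NADH and from succinate to ubiquinone, complex III hands them to cytochrome c, complex IV gives them to oxygen, and complex V makes ATP from the proton gradient that complexes I, III and IV build. Most subunits are encoded in the nucleus and imported, while a core of complexes I, III, IV and V is encoded by the mitochondrial genome. Clear cell renal carcinoma is known for active hypoxia-inducible factors and low respiration.

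TRIM28 stood at 43.9, 54.6 and 57.9 CPM in TRIM28 knockdown, against 315, 341 and 381 CPM in control, or 15.1% of the control mean. PARP1 stood at 6.81, 4.48 and 5.24 CPM in PARP1 knockdown, against 178, 200 and 153 CPM in control, or 3.12% of the control mean. In TRIM28 knockdown PARP1 itself stood at 94.3, 93.2 and 93.4 CPM, or 52.9% of the control mean. CPM are read counts scaled to library size with TMM factors. Adjusted p-values come from the quasi-likelihood test of edgeR over 13562 tested genes, with the Benjamini-Hochberg method. The value after ± is the standard error of a log2 fold change unless named as an SD, and each group had n = 3 libraries. A gene is said to rise or fall where its adjusted p was under 0.05. Library totals ran from 11963110 to 20224374 counts. Of 14 kidney epithelial genes, 12 passed the filter on low counts, and CDH1 had 0 reads in every library. Summed markers of leukocytes, endothelium, fibroblasts with pericytes, and red blood cells reached at most 2.61, 4.78, 5.32 and 0.169 CPM in any library.

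Of the 88 genes, 81 passed the filter on low counts: all of complexes I, II and III, 11 of complex IV and 18 of complex V. The 7 others include isoforms known from other tissues. COX4I2, the isoform of COX4 known from lung and from hypoxia, COX6A2, known from heart and muscle, and COX7B2 had 0 reads in every library. COX7A1, the heart and muscle partner of COX7A2, had 2 reads summed over TRIM28 knockdown and 2 over PARP1 knockdown, against 10 over control. COX6B2, known from testis, had 26 reads in all 9 libraries together, COX8C had 5 and ATP5MGL had 1.

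Per length, the median control level of the tested genes was highest for complex IV, at 107.6 FPKM, and lowest for complex I, at 23.0 FPKM. The medians of complexes II, III and V were 47.7, 74.4 and 55.4 FPKM. NDUFS5, an accessory subunit of complex I, came first at 633, 639 and 673 FPKM in the control libraries. ATP5F1B, the catalytic beta subunit of ATP synthase, came next at 593, 594 and 649.9 FPKM, and the libraries of these 2 genes overlap. UQCRH, the hinge subunit of complex III, followed at 310.1 ± 16.9 FPKM (SD), in a range that overlaps those of NDUFA1 and COX6A1. The lowest levels were those of NDUFA5 at 2.18 ± 0.330, NDUFA7 at 3.60 ± 1.41 and NDUFV3 at 5.38 ± 0.114 FPKM (SD), all in complex I. The ranges of NDUFA5 and NDUFA7 overlap, and that of NDUFA7 reaches into those of NDUFA9 and of UQCRHL of complex III. That of NDUFV3 reaches into those of NDUFA9, NDUFS1 and UQCRHL and touches that of NDUFA10. The order of the lowest levels is therefore not resolved. FPKM here divide by the summed length of all annotated exons of a gene, not by 1 transcript.

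**Figure D1:**
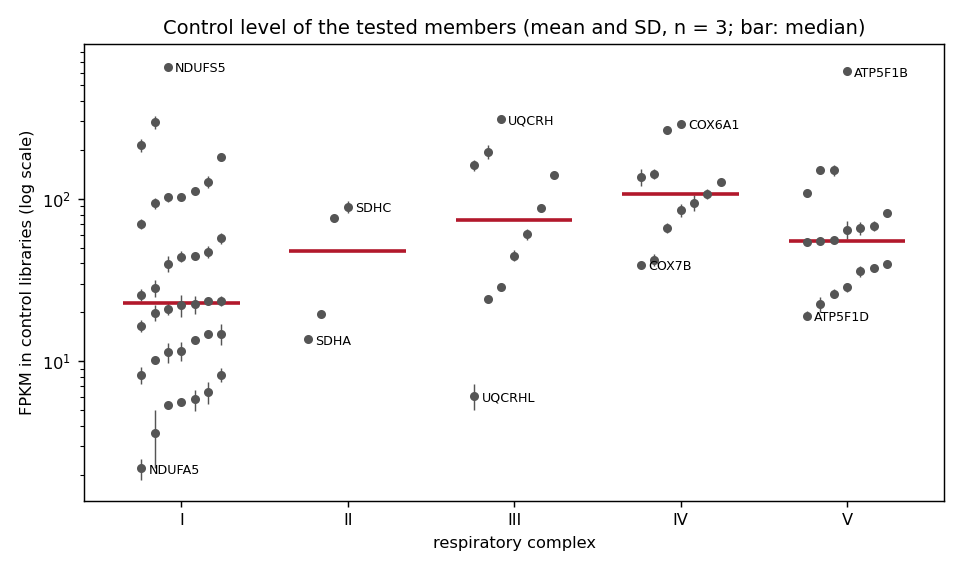
Control FPKM (log scale) of the 81 tested genes by respiratory complex; points are means of 3 control libraries with their SD, and red bars are medians. Complex IV has the highest median, 107.6 FPKM, and complex I the lowest, 23.0 FPKM, although complex I holds both the highest gene, NDUFS5, and the lowest, NDUFA5.

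In TRIM28 knockdown 51 of the 81 tested genes rose, 1 (NDUFS1) fell and 29 did not pass. Of all tested genes 10.3% rose and 17.5% fell there, 27.8% in either direction. The members' median log2 fold change was 0.44, against -0.02 over all tested genes, and 0 members reached 2-fold. In bulk RNA, a change in RNA per cell and a change in the share of cells of a kind cannot be told apart. By complex, 22 of 38 rose in complex I, 3 of 4 in complex II, 8 of 10 in complex III, 9 of 11 in complex IV and 9 of 18 in complex V. Their medians were 0.44, 0.44, 0.44, 0.52 and 0.37. The libraries of both groups did not overlap for 69 of the 81 members, against 46.4% of all tested genes. The count of 51 was 20 with trends on the length and GC of principal transcripts removed. The medians of complexes I to V were then 0.066, 0.27, 0.19, 0.16 and 0.15. The count of 51 also changed with single libraries, to 7 without control replicate 1 and 17 without control replicate 2. It was 10 and 24 when TRIM28 knockdown replicates 2 and 1 were left out.

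In PARP1 knockdown 71 of the 81 rose, 3 fell and 7 did not pass, where 27.1% of all tested genes rose and 32.2% fell, 59.3% in either direction. The median was 0.82, against -0.07 over all tested genes, and 22 members rose at least 2-fold. All 11 tested genes of complex IV rose, as did 33 of 38 in complex I, 3 of 4 in complex II, 9 of 10 in complex III and 15 of 18 in complex V. The medians of complexes I to V were 0.81, 0.54, 0.90, 0.94 and 0.80. NDUFS1, UQCRC2 and ATP5F1A fell. Among those that did not pass were NDUFA5, NDUFA10, NDUFV3, SDHD, ATP5F1C and ATP5PB. The libraries of both groups did not overlap for 76 members, against 63.5% of all tested genes. Leaving out any 1 library gave 69 to 72 genes higher and 3 lower, and removing trends on the length and GC of principal transcripts gave 40 higher. The medians of complexes I to V were then 0.19, 0.26, 0.58, 0.45 and 0.21. With length and GC trends by summed exons removed they were 0.55, 0.63, 0.52, 0.84 and 0.63. The order of the complexes thus depends on the setting.

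Both comparisons use the same 3 control libraries, so their calls are not independent. Summed over all members, the level was 17127, 17337 and 15463 CPM in TRIM28 knockdown and 17459, 22615 and 24533 CPM in PARP1 knockdown, against 11614, 12243 and 13802 CPM in control. Every knockdown library lay above every control library, PARP1 knockdown replicate 1 stood near the TRIM28 knockdown libraries, and control replicate 3 was the highest control. The members took 1.67 ± 0.0866% of counts in TRIM28 knockdown and 1.91 ± 0.198% in PARP1 knockdown, against 1.40 ± 0.0729% in control (SD, n = 3 each).

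**Figure D2:**
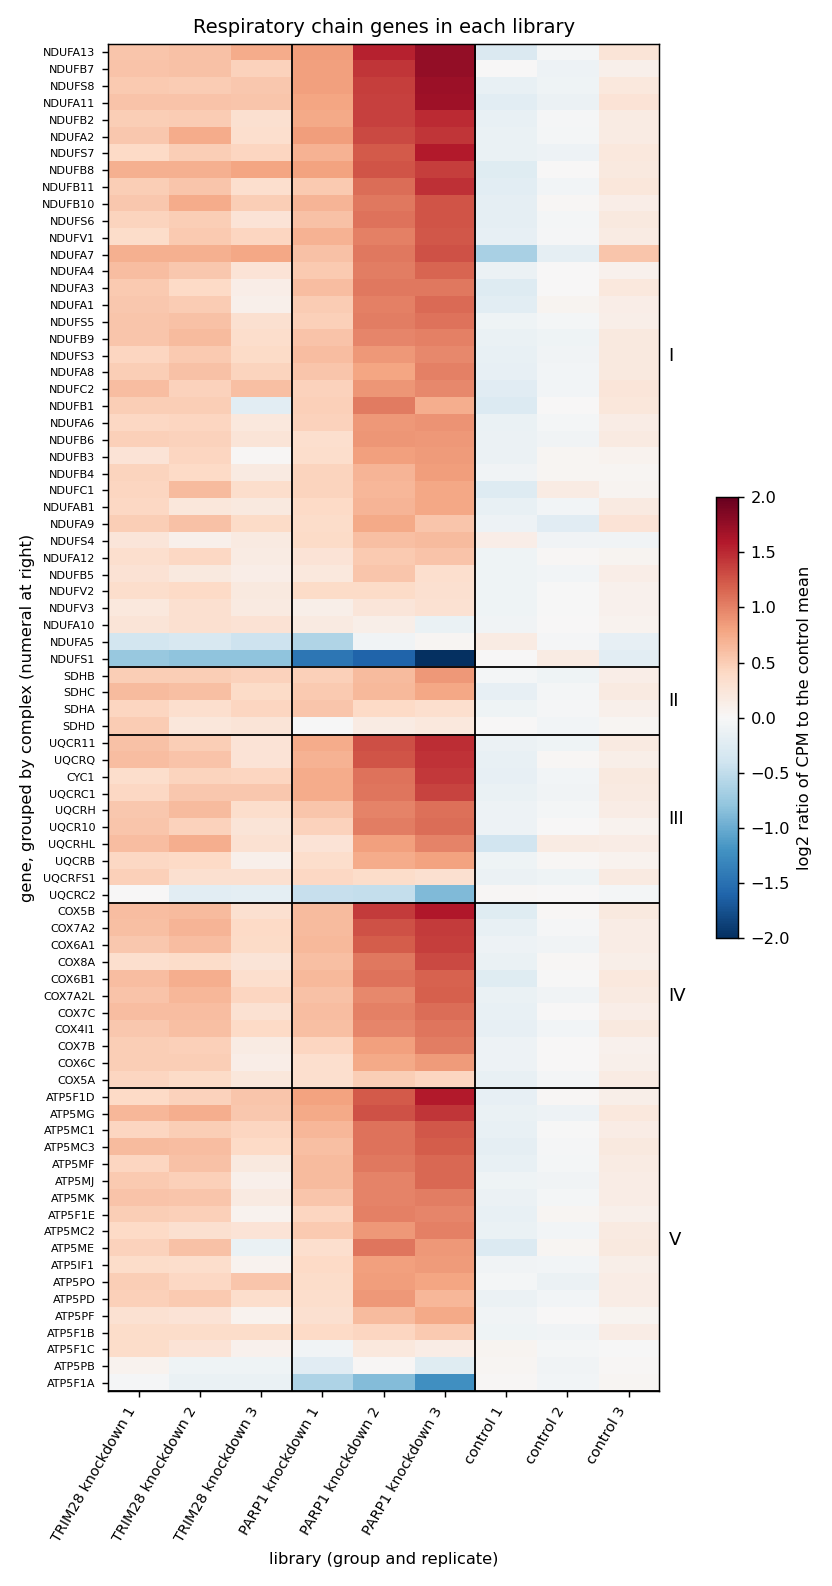
Each row is 1 of 80 tested genes, grouped by complex, and each column 1 library; colour gives the log2 ratio of CPM to the control mean. Most rows are red in the 6 knockdown libraries, deepest in PARP1 knockdown replicates 2 and 3, while NDUFS1 is blue in all 6 and UQCRC2 and ATP5F1A are bluest in PARP1 knockdown.

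Set directly against PARP1 knockdown, TRIM28 knockdown had 44 of the 81 genes lower, 3 higher and 34 not passing. Of all tested genes 11.9% were lower and 13.2% higher, 25.1% in either direction. The median was -0.40, against 0.03 over all tested genes. NDUFS1, UQCRC2 and ATP5F1A were the 3 higher genes. Lower genes made up 19 of 38 in complex I, 6 of 10 in complex III, 8 of 11 in complex IV and 11 of 18 in complex V. Of the 4 in complex II, 0 were lower by edgeR, and 0 by DESeq2, by limma or at an unadjusted p under 0.05. None was higher by edgeR, also at an unadjusted p under 0.05, or by DESeq2, and 1 was higher by either limma fit, with library totals and with the length trend removed. The libraries of both groups did not overlap for 35 members, against 39.4% of all tested genes. The count of 44 was 20 without TRIM28 knockdown replicate 3, 20 without PARP1 knockdown replicate 3, 21 without PARP1 knockdown replicate 2 and 25 without TRIM28 knockdown replicate 1. The count of 3 was 2 without PARP1 knockdown replicate 3 or TRIM28 knockdown replicate 1.

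**Figure D3:**
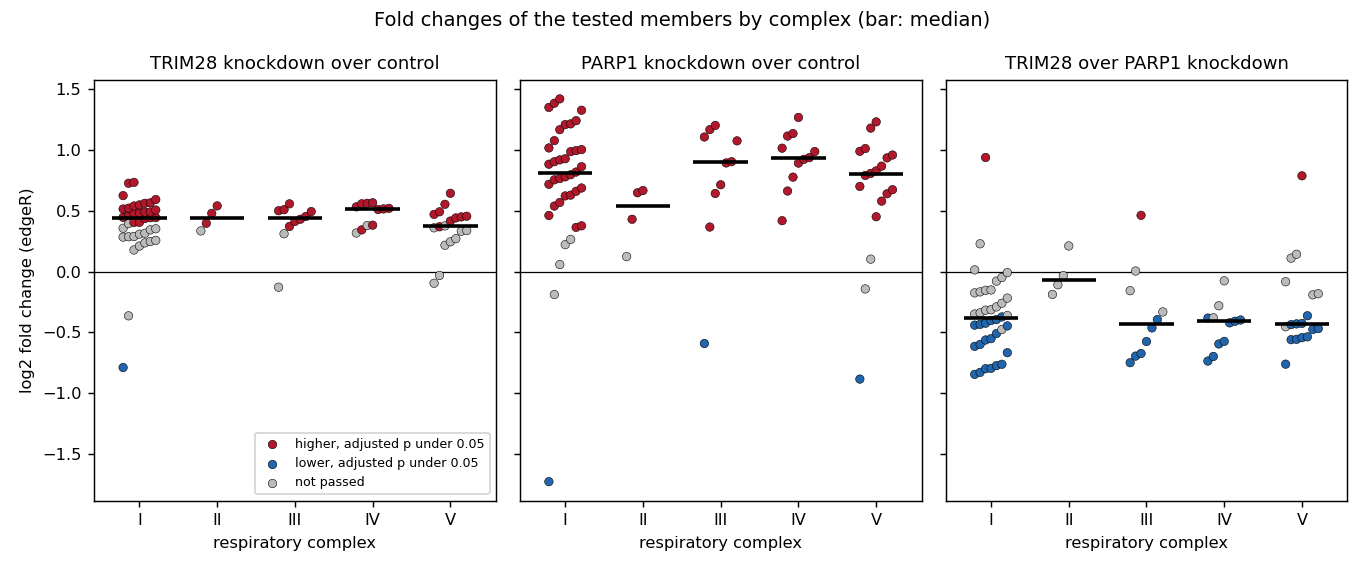
Log2 fold changes of the 81 tested genes by complex for TRIM28 knockdown over control, PARP1 knockdown over control and TRIM28 over PARP1 knockdown; red points were higher and blue points lower at an adjusted p under 0.05, grey points did not pass, and bars are medians. With length and GC trends in place, the medians of the complexes lie between 0.37 and 0.52 in TRIM28 knockdown and between 0.54 and 0.94 in PARP1 knockdown.

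In complex I the subunits of the NADH-oxidising arm moved apart. NDUFV1, which holds the flavin that takes electrons from NADH (ENSG00000167792, chromosome 11, 67605653 to 67612554, plus strand, GRCh38), stood at 259, 288 and 269 CPM in TRIM28 knockdown and at 324, 402 and 470.4 CPM in PARP1 knockdown, against 178, 196 and 225 CPM in control. Its 3 groups do not overlap, and it rose by 0.44 ± 0.14 in TRIM28 knockdown (adjusted p = 0.0204) and by 1.00 ± 0.14 in PARP1 knockdown (adjusted p = 1.78e-06). NDUFS1, the largest subunit, which carries iron-sulfur clusters of the same arm (ENSG00000023228, chromosome 2, 206114817 to 206159509, minus strand), stood at 41.0, 39.9 and 40.1 CPM in TRIM28 knockdown and at 25.7, 22.9 and 14.1 CPM in PARP1 knockdown, against 70.4, 78.4 and 60.3 CPM in control. Every library of PARP1 knockdown lay below every library of TRIM28 knockdown, and these below every control. NDUFS1 fell by 0.79 ± 0.16 in TRIM28 knockdown (adjusted p = 0.000958) and by 1.73 ± 0.17 in PARP1 knockdown (adjusted p = 9.35e-09), to 57.9% and 30.0% of the control mean. TRIM28 knockdown over PARP1 knockdown gave 0.94 ± 0.17 (adjusted p = 0.000662). With trends on length and GC removed, NDUFS1 did not pass in TRIM28 knockdown. Its log2 fold change there was -0.37 (adjusted p = 0.0724) by summed exons and -0.32 (adjusted p = 0.17) by principal transcripts. In PARP1 knockdown it was -0.99 (adjusted p = 3.98e-05) and -0.97 (adjusted p = 0.000123). NDUFV1 likewise did not pass in TRIM28 knockdown, at 0.24 (adjusted p = 0.181) and 0.18 (adjusted p = 0.316). It kept its call in PARP1 knockdown, at 0.54 (adjusted p = 0.00137) and 0.47 (adjusted p = 0.00259).

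Of the other iron-sulfur subunits of complex I, NDUFS8 and NDUFS7, near the ubiquinone site, rose by 0.52 ± 0.16 and 0.44 ± 0.16 in TRIM28 knockdown and by 1.35 ± 0.17 and 1.21 ± 0.16 in PARP1 knockdown. NDUFV2 rose in PARP1 knockdown by 0.36 ± 0.13, and had 0.32 ± 0.13 in TRIM28 knockdown. The core subunit NDUFS3 rose in both, by 0.45 ± 0.13 in TRIM28 knockdown and by 0.82 ± 0.14 in PARP1 knockdown.

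Among the accessory subunits of complex I, NDUFA13, also known as GRIM19 (ENSG00000186010, chromosome 19, 19515736 to 19529054, plus strand), stood at 78.9, 80.7 and 89.8 CPM in TRIM28 knockdown and at 95.9, 156 and 181 CPM in PARP1 knockdown, against 44.3, 52.6 and 64.8 CPM in control. It rose 1.54-fold in TRIM28 knockdown and 2.68-fold in PARP1 knockdown, and neither knockdown overlaps control. With trends on length and GC removed, NDUFA13 did not pass in TRIM28 knockdown. It had 0.22 (adjusted p = 0.29) there by summed exons and 0.052 (adjusted p = 0.804) by principal transcripts. In PARP1 knockdown it kept its call by summed exons, at 0.52 (adjusted p = 0.00586). By principal transcripts it lost that call, at 0.18 (adjusted p = 0.22). Its position overlaps YJEFN3 on the same strand, so the assignment of its reads is uncertain. The same holds for NDUFB2, NDUFB8, NDUFC2, NDUFS3 and ATP5MF, which also overlap a tested gene on their own strand, and 18 further members overlap one on the opposite strand alone. NDUFB7, NDUFB10 and NDUFB8 of the membrane arm rose by 0.54 ± 0.16, 0.59 ± 0.15 and 0.73 ± 0.15 in TRIM28 knockdown and by 1.39 ± 0.17, 1.02 ± 0.15 and 1.17 ± 0.15 in PARP1 knockdown. NDUFA5, of the matrix arm, did not pass, at -0.36 ± 0.16 in TRIM28 knockdown and -0.19 ± 0.16 in PARP1 knockdown.

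Complex II, succinate dehydrogenase, is entirely nuclear-encoded and also works in the citric acid cycle. SDHB, its iron-sulfur subunit, stood at 221, 222 and 218 CPM in TRIM28 knockdown and at 220.3, 244 and 288 CPM in PARP1 knockdown, against 153, 148 and 172 CPM in control. Neither knockdown overlaps control, and SDHB rose by 0.48 ± 0.13 in TRIM28 knockdown (adjusted p = 0.00858) and by 0.67 ± 0.13 in PARP1 knockdown (adjusted p = 0.000104). SDHC, a membrane anchor, rose by 0.54 ± 0.13 and 0.65 ± 0.13, and SDHA, the flavoprotein, by 0.40 ± 0.13 and 0.43 ± 0.13, in TRIM28 and PARP1 knockdown. With principal transcript trends removed SDHA passed in neither, at 0.19 and 0.14, and with library totals in neither, at 0.24 and 0.11. With length and GC trends by summed exons removed it kept both calls, at 0.49 and 0.67. By principal transcripts SDHB lost its call in TRIM28 knockdown, at 0.26 (adjusted p = 0.0645), and kept that in PARP1 knockdown. Pseudogenes named after SDHA held reads equal to 5.55% of its own, so its level is uncertain by about that share. SDHD, the other anchor, stood at 69.0, 56.6 and 57.9 CPM in TRIM28 knockdown and at 48.4, 54.3 and 56.0 CPM in PARP1 knockdown, against 49.0, 46.7 and 49.8 CPM in control. It passed in neither, at 0.33 ± 0.13 in TRIM28 knockdown and 0.12 ± 0.13 in PARP1 knockdown, where its libraries overlap control.

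In complex III the core proteins UQCRC1 and UQCRC2, which face the matrix, went opposite ways in PARP1 knockdown. UQCRC1 (ENSG00000010256, chromosome 3, 48599002 to 48610976, minus strand) stood at 614, 675 and 675 CPM in TRIM28 knockdown and at 776, 976 and 1174 CPM in PARP1 knockdown, against 422, 441 and 524 CPM in control. The groups do not overlap, and it rose by 0.50 ± 0.14 in TRIM28 knockdown (adjusted p = 0.0114) and by 1.08 ± 0.14 in PARP1 knockdown (adjusted p = 8.19e-07). UQCRC2 (ENSG00000140740, chromosome 16, 21953288 to 21983660, plus strand) stood at 118, 101 and 103 CPM in TRIM28 knockdown and at 85.1, 84.6 and 63.5 CPM in PARP1 knockdown, against 119, 118 and 115 CPM in control. It fell by 0.59 ± 0.14 in PARP1 knockdown (adjusted p = 0.000562), where no library overlaps control, and did not pass in TRIM28 knockdown, at -0.13 ± 0.13. The call of UQCRC2 in PARP1 knockdown was lost with trends on length and GC removed, at -0.14 (adjusted p = 0.259) by summed exons and -0.22 (adjusted p = 0.0622) by principal transcripts. UQCRC1 kept its call there, at 0.44 (adjusted p = 0.00441) and 0.36 (adjusted p = 0.00836). In TRIM28 knockdown the call of UQCRC1 was lost, at 0.16 (adjusted p = 0.346) and 0.13 (adjusted p = 0.41).

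CYC1, which passes electrons to cytochrome c, rose by 0.41 ± 0.15 in TRIM28 knockdown and by 1.11 ± 0.15 in PARP1 knockdown. UQCRFS1, the Rieske iron-sulfur protein, rose by 0.37 ± 0.13 in TRIM28 knockdown and by 0.37 ± 0.13 in PARP1 knockdown. The small subunits UQCR11 and UQCRQ rose 1.37-fold and 1.41-fold in TRIM28 knockdown and 2.30-fold and 2.25-fold in PARP1 knockdown. UQCRH rose by 0.51 ± 0.14 and 0.90 ± 0.14 in TRIM28 and PARP1 knockdown. UQCRHL, an intronless copy of UQCRH, rose by 0.56 ± 0.19 and 0.71 ± 0.19, and its value is uncertain because reads could be shared with UQCRH.

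Complex IV, cytochrome c oxidase, had all of its tested nuclear genes higher in PARP1 knockdown. With trends on the length and GC of principal transcripts removed, 6 of the 11 were higher and 1 was lower. COX5B, a zinc-binding subunit on the matrix side (ENSG00000135940, chromosome 2, 97646062 to 97648383, plus strand), stood at 186, 187 and 151 CPM in TRIM28 knockdown and at 187, 319 and 368 CPM in PARP1 knockdown, against 102, 123 and 138 CPM in control. No knockdown library overlaps control, and PARP1 knockdown replicate 1 lay at the level of the TRIM28 knockdown libraries. COX5B rose by 0.53 ± 0.18 in TRIM28 knockdown (adjusted p = 0.0266) and by 1.27 ± 0.18 in PARP1 knockdown (adjusted p = 1.62e-06). With trends on length and GC removed, its call in TRIM28 knockdown was lost. It had 0.13 (adjusted p = 0.62) there by summed exons and 0.12 (adjusted p = 0.605) by principal transcripts. With library totals that call was also lost, at 0.38 (adjusted p = 0.111). In PARP1 knockdown COX5B kept its call, at 0.56 by summed exons and 0.56 by principal transcripts. COX4I1, the largest nuclear subunit, rose by 0.51 ± 0.14 and 0.89 ± 0.14, COX6A1 by 0.52 ± 0.15 and 1.12 ± 0.15, and COX7A2 by 0.56 ± 0.16 and 1.14 ± 0.16, in TRIM28 and PARP1 knockdown. COX7A2L, known for joining complexes III and IV into supercomplexes, rose by 0.56 ± 0.15 and 0.94 ± 0.15. COX8A and COX7B rose in PARP1 knockdown by 1.02 ± 0.15 and 0.78 ± 0.15, and had 0.32 ± 0.15 and 0.38 ± 0.15 in TRIM28 knockdown, which did not pass.

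In complex V the alpha and beta subunits, which alternate in the catalytic head, went opposite ways in PARP1 knockdown. ATP5F1B (ENSG00000110955, chromosome 12, 56638175 to 56645984, minus strand) stood at 1587, 1575 and 1588 CPM in TRIM28 knockdown and at 1620, 1648 and 1763 CPM in PARP1 knockdown, against 1151, 1173 and 1354 CPM in control. Neither knockdown overlaps control, and it rose by 0.37 ± 0.12 in TRIM28 knockdown (adjusted p = 0.0267) and by 0.45 ± 0.12 in PARP1 knockdown (adjusted p = 0.00272). ATP5F1A (ENSG00000152234, chromosome 18, 46080248 to 46104334, minus strand) stood at 528, 493 and 493 CPM in TRIM28 knockdown and at 349.9, 297 and 229.8 CPM in PARP1 knockdown, against 546, 518 and 553 CPM in control. It fell by 0.88 ± 0.14 in PARP1 knockdown (adjusted p = 6.99e-06), to 54.2% of the control mean, and did not pass in TRIM28 knockdown, at -0.10 ± 0.14. The call of ATP5F1A in PARP1 knockdown was lost with trends on length and GC removed, at -0.27 (adjusted p = 0.0566) by summed exons and -0.11 (adjusted p = 0.425) by principal transcripts. That of ATP5F1B in PARP1 knockdown was lost with the length trend removed, at -0.02 (adjusted p = 0.88). It was also lost with length and GC trends by summed exons removed, at 0.19 (adjusted p = 0.0857), and with library totals, at 0.12 (adjusted p = 0.267). By principal transcripts it was kept, at 0.28 (adjusted p = 0.00931). In TRIM28 knockdown the call of ATP5F1B was lost in each of these settings, at 0.11, 0.15, 0.21 and 0.20 in the same order.

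With length and GC trends in place, the central stalk genes of complex V also differed. ATP5F1D, the delta subunit, rose by 0.47 ± 0.16 in TRIM28 knockdown and by 1.23 ± 0.16 in PARP1 knockdown. ATP5F1E, the epsilon subunit, rose by 0.83 ± 0.15 in PARP1 knockdown and had 0.36 ± 0.15 in TRIM28 knockdown. ATP5F1C, the gamma subunit, did not pass, at 0.25 ± 0.13 in TRIM28 knockdown and 0.10 ± 0.13 in PARP1 knockdown. With length and GC trends by summed exons removed, ATP5F1D, ATP5F1E and ATP5F1C had 0.054, 1.19 and 0.18 in PARP1 knockdown. By principal transcripts they had -0.27, 1.33 and -0.10 there. The difference between ATP5F1D and ATP5F1C thus depends on the setting. ATP5MC1, ATP5MC2 and ATP5MC3 encode the same mature protein of the rotor ring, and rose by 1.01 ± 0.14, 0.81 ± 0.14 and 0.99 ± 0.15 in PARP1 knockdown. In TRIM28 knockdown ATP5MC1 and ATP5MC3 rose, by 0.46 ± 0.14 and 0.55 ± 0.15, and ATP5MC2 had 0.33 ± 0.14.

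ATP5MG, a membrane subunit, stood at 266, 279 and 244 CPM in TRIM28 knockdown and at 283, 406 and 455 CPM in PARP1 knockdown, against 153, 156 and 195 CPM in control, with no overlap between either knockdown and control. It rose by 0.64 ± 0.15 in TRIM28 knockdown (adjusted p = 0.0031) and by 1.18 ± 0.15 in PARP1 knockdown (adjusted p = 5.28e-07). ATP5PO, of the peripheral stalk, rose by 0.49 ± 0.14 and 0.67 ± 0.14 in TRIM28 and PARP1 knockdown. ATP5IF1, the inhibitor of ATP hydrolysis, rose by 0.70 ± 0.14 in PARP1 knockdown and had 0.27 ± 0.14 in TRIM28 knockdown.

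A ratio of counts within a library does not depend on how libraries are scaled. The following pairs were chosen after their values were seen, so the ratios are a description with no test. NDUFS1 to NDUFV1 stood at 0.149 ± 0.0101 in TRIM28 knockdown and 0.0554 ± 0.0247 in PARP1 knockdown, against 0.354 ± 0.0743 in control (SD, n = 3 each). UQCRC2 to UQCRC1 stood at 0.165 ± 0.0235 in TRIM28 knockdown and 0.0835 ± 0.0280 in PARP1 knockdown, against 0.256 ± 0.0330 in control. ATP5F1A to ATP5F1B stood at 0.319 ± 0.0123 in TRIM28 knockdown and 0.175 ± 0.0431 in PARP1 knockdown, against 0.442 ± 0.0330 in control. In each of these pairs the 3 groups do not overlap and PARP1 knockdown is lowest. SDHD to SDHC in complex II stood at 0.277 ± 0.0264 in TRIM28 knockdown and 0.222 ± 0.00661 in PARP1 knockdown, against 0.322 ± 0.0352 in control, and there TRIM28 knockdown overlaps control. NDUFS1, UQCRC2 and ATP5F1A have longer principal transcripts than their partners: 11819 bases for NDUFS1 and 2528 for NDUFV1, 2615 for UQCRC2 and 1985 for UQCRC1, and 5818 for ATP5F1A and 1839 for ATP5F1B. SDHD has 1439 bases and SDHC 13566 by principal transcripts, but by summed exons the order is reversed, at 2790 and 1902 bases. Which of these 2 is longer is therefore not settled. The GC content of NDUFS1, UQCRC2 and ATP5F1A is lower than that of their partners, at 43.1%, 43.7% and 46.4%, against 59.7%, 58.6% and 50.5%, while SDHD has 47.3% and SDHC 44.2%.

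**Figure D4:**
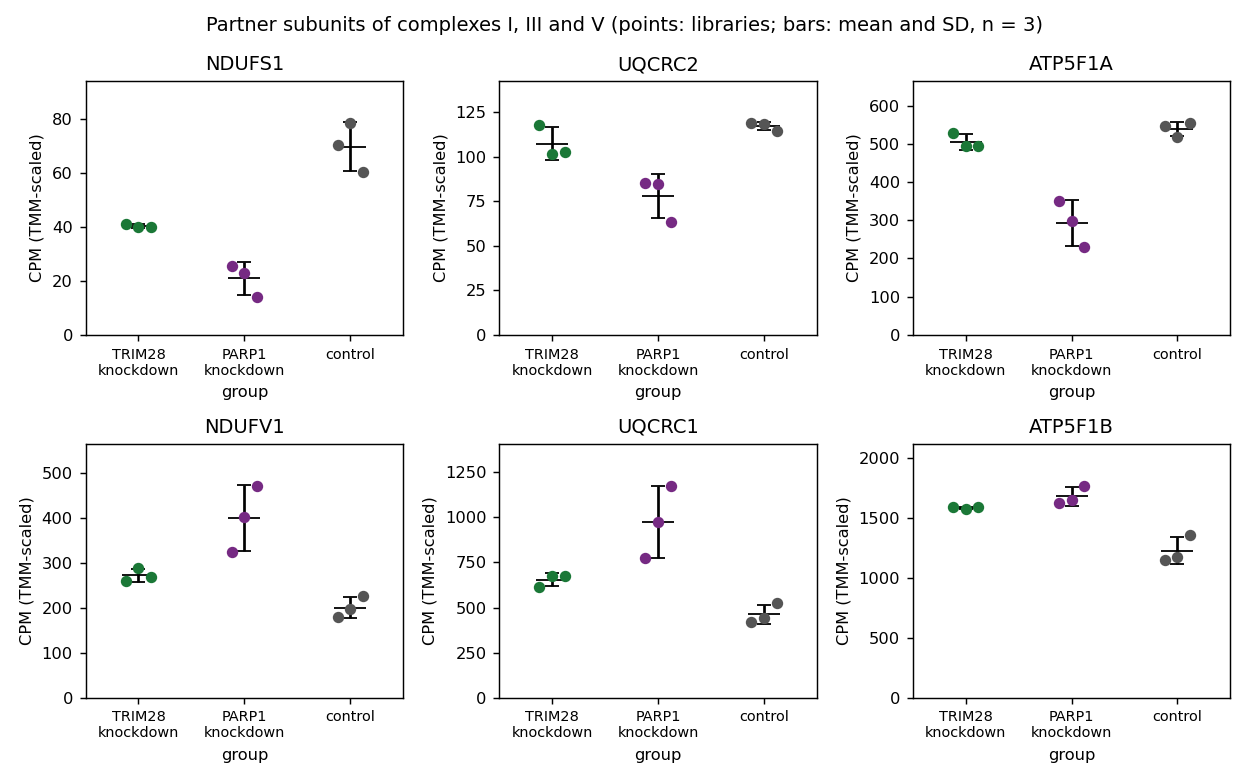
TMM-scaled CPM of the partner subunits NDUFS1 and NDUFV1, UQCRC2 and UQCRC1, and ATP5F1A and ATP5F1B in TRIM28 knockdown, PARP1 knockdown and control; points are libraries, with the mean and SD of 3. NDUFS1, UQCRC2 and ATP5F1A average 20.9, 77.7 and 292 CPM in PARP1 knockdown, their lowest group, and the partners 399, 975 and 1677 CPM, their highest.

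The members are short as a group, and the log2 fold changes of all genes moved with transcript length and GC content. Principal transcripts had a median of 1078 bases over the tested members, against 2912 bases over all tested genes. For some members this length exceeds the summed exons, as for SDHC (13566 against 1902 bases) and ATP5MC3 (5484 against 3883). It is uncertain for these members, also where trends on principal transcripts were removed. Of 10 equal classes of all tested genes by length, the shortest, up to 1018 bases, held 39 of the 81 members. The median log2 fold change of all genes in that class was 0.37 in TRIM28 knockdown and 0.72 in PARP1 knockdown, and in the longest class -0.43 and -0.73. The slope of log2 CPM, relative to the mean of each gene over the libraries, per log2 unit of summed exon length was -0.0105, -0.0244 and -0.000850 in TRIM28 knockdown and -0.0968, -0.152 and -0.167 in PARP1 knockdown, against 0.203, 0.175 and 0.0725 in control, with no overlap between groups. What part length and GC have in the members' changes was not tested beyond removing these trends.

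With the trend on summed exon length removed, 18 members rose and 1 fell in TRIM28 knockdown, where 8.04% of all tested genes rose and 14.7% fell. In PARP1 knockdown 49 rose and 5 fell, where 23.8% of all rose and 29.2% fell, and in TRIM28 over PARP1 knockdown 5 were higher and 27 lower, where 11.3% and 10.4% of all were. With trends on length and GC removed, 32 members rose and 0 fell in TRIM28 knockdown by edgeR (2 lower at an unadjusted p under 0.05, and no other tool run with these trends), where 6.84% and 14% of all did. In PARP1 knockdown 61 rose and 1 fell, where 18.6% and 28.4% did, and 2 were higher and 31 lower in TRIM28 over PARP1 knockdown, where 9.03% and 5.12% of all were.

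With length and GC taken from 1 principal transcript per gene, 20 members rose and 2 fell in TRIM28 knockdown, where 6.02% and 12.7% of all did. In PARP1 knockdown 40 rose and 4 fell, where 15.7% and 27% did, and 2 were higher and 19 lower in TRIM28 over PARP1 knockdown, where 8.43% and 4.67% were. The members' median then exceeded the all-gene median by 0.19 (TRIM28 knockdown) and 0.37 (PARP1 knockdown), against 0.46 and 0.89 with the trends in place.

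Several members that rose did not stay higher in PARP1 knockdown once the principal transcript trends were removed. NDUFS8, NDUFS7, NDUFB7, CYC1, COX4I1 and COX6B1 then had -0.057, -0.19, -0.18, -0.031, -0.11 and -0.023. ATP5F1D, COX8A and NDUFB10 passed as lower, at -0.27, -0.25 and -0.24. Others stayed higher: ATP5MG at 1.19, COX7A2 at 0.84, COX7A2L at 1.48, COX5B at 0.56 and NDUFV1 at 0.47.

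Scaling by library totals in place of TMM shifted the all-gene median by -0.16 for TRIM28 knockdown over control, -0.32 for PARP1 knockdown over control and 0.17 for TRIM28 over PARP1 knockdown. Relative to that median the members stood at 0.46, 0.88 and -0.42. With that scaling 19 members rose and 2 fell in TRIM28 knockdown, where 3.34% and 21.1% of all did. In PARP1 knockdown 57 rose and 5 fell, where 14.9% and 42.8% did, and 5 were higher and 20 lower in TRIM28 over PARP1 knockdown, where 17.3% and 4.72% were.

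The 28 members with a principal transcript of at least 1000 bases and GC under 50% had medians of 0.38 in TRIM28 knockdown and 0.66 in PARP1 knockdown, where the 6468 tested genes of that kind had -0.35 and -0.64. In PARP1 knockdown 20 of the 28 rose and 3 fell, where 8.69% of the 6468 rose and 52.1% fell. The 21 members with shorter transcripts and GC of at least 50% all rose in PARP1 knockdown, where 61.4% of 751 such genes rose. Their medians were 0.51 in TRIM28 knockdown and 1.02 in PARP1 knockdown, close to the 0.41 and 0.90 of the 751 genes. Across the 81 members, which share their libraries, the log2 fold change had a Spearman rho with GC content of 0.32 in TRIM28 knockdown and 0.56 in PARP1 knockdown. Over all tested genes with a GC value the rho was 0.44 and 0.52, so this relation is not particular to the members. Chromosome 19 carries 10 of the members, or 12.3%, against 6.41% of all tested genes. These 10 had a median GC of 60.3% and a median log2 fold change of 1.21 in PARP1 knockdown, against 0.48 over the 870 tested genes of that chromosome.

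**Figure D5:**
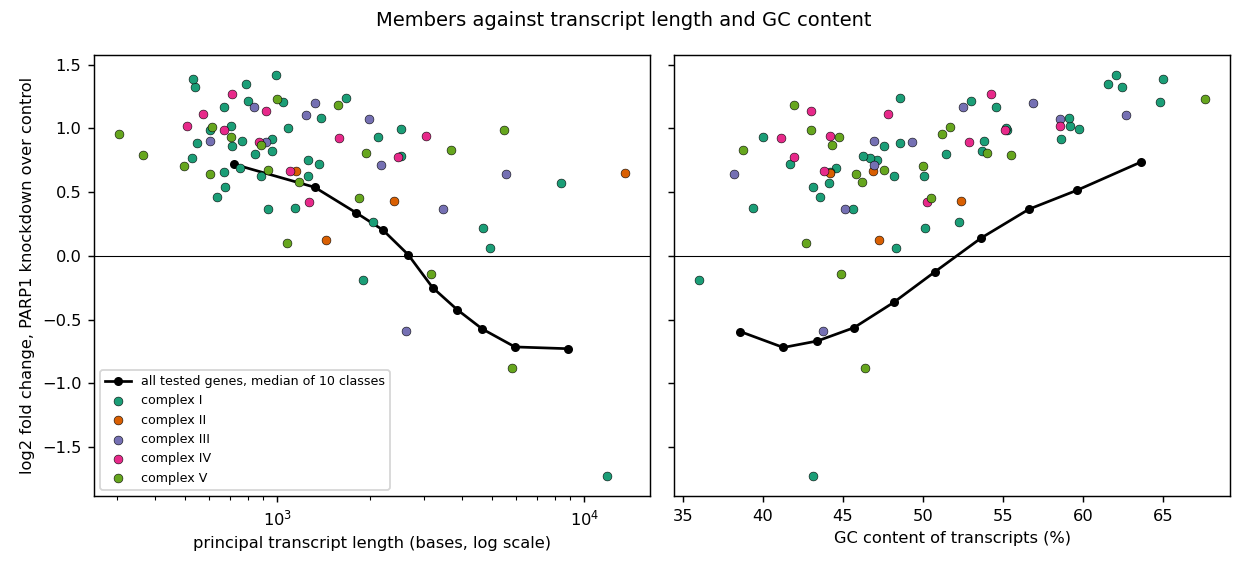
Log2 fold change in PARP1 knockdown over control of the 81 tested members against principal transcript length (log scale) and GC content, coloured by complex; the black line joins the medians of 10 equal classes of all tested genes. The line falls with length to -0.73 and climbs with GC to 0.74, and the members' median is 0.82.

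Upstream sequence is shown for 5 members from complexes I, III, IV and V that rose at least 2-fold in PARP1 knockdown, and for NDUFV3, which passed in neither knockdown. This contrast holds with length and GC trends in place. With principal transcript trends removed, NDUFV3 rose by 0.53 in TRIM28 knockdown and by 0.86 in PARP1 knockdown. There UQCR11 (0.62) and COX5B (0.56) also rose in PARP1 knockdown, while NDUFB7 (-0.18), COX6A1 (0.24) and ATP5MC1 (0.057) did not pass. Each stretch lies within 200 bases before the RefSeq start (GRCh38.p14) and is free of exons of protein-coding genes. For NDUFV3 that stretch lies inside the span of the gene in the deposited table, 42879644 to 42913304, which begins further upstream. Capitals mark matches on either strand to letters known from respiratory gene promoters: GCATGCGC for NRF1, CCGGAAG for ETS factors such as GABP, AAGATGG for YY1, GGGCGG for SP1 and CCAAT.
NDUFB7, chr19:14572067-14572266, minus strand: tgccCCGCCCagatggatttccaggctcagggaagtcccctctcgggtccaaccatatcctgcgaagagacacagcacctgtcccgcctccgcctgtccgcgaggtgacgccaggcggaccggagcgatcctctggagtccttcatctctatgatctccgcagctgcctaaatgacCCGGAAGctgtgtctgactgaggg
UQCR11, chr19:1605491-1605662, minus strand: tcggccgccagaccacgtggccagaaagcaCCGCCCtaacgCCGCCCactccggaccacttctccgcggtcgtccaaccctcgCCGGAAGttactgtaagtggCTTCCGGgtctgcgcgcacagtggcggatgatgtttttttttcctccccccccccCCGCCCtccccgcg
COX5B, chr2:97645862-97646039, plus strand: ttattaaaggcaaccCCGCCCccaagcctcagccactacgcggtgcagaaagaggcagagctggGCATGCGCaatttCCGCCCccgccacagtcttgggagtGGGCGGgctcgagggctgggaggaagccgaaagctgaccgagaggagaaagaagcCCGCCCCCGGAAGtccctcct
COX6A1, chr12:120437913-120438089, plus strand: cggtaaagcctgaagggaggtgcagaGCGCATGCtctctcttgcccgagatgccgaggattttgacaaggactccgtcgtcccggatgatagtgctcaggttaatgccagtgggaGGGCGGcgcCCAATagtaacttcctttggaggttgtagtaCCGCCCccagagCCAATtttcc
ATP5MC1, chr17:48892587-48892764, plus strand: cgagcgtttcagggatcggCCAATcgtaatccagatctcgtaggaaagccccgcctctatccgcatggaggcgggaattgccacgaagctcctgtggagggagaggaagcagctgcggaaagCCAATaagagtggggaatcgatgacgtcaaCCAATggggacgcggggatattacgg
NDUFV3, chr21:42893109-42893264, plus strand: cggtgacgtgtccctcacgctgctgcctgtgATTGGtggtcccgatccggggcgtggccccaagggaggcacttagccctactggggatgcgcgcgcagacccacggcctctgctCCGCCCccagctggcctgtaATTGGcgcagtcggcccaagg

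RefSeq windows of 250 bases before and 50 after a start were found for 70 of the 88 members. The NRF1 letters were in 18.1% of the member windows, against 3.05% of all 35116 windows of the table, the ETS letters in 26.5% against 10.3%, and the YY1 letters in 22.9% against 5.84%. The SP1 letters were in 61.4% against 45.0% and CCAAT in 34.9% against 34.6%. Among windows of tested genes alone, the NRF1 letters were in 15 of the members' 79 windows against 4.78% of all, the ETS letters in 27.8% against 17.3%, and the YY1 letters in 24.1% against 7.06%. There the SP1 letters were in 63.3% of the members' windows against 66.1% of all, and CCAAT in 32.9% against 34.8%, so the order for these 2 motifs depends on the windows they are set against. By gene, the NRF1 letters were found for 14 members, and for 0 of the 7 complex III genes with a window. The 14 had median log2 fold changes of 0.35 in TRIM28 knockdown and 0.77 in PARP1 knockdown, where the 52 tested members without them had 0.44 and 0.89. The 21 tested members with the ETS letters had 0.45 and 0.90, and the 45 without them 0.40 and 0.78. A match is a run of letters and not a binding site, and no match says only that these letters are not in this window.

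Of 56 assembly factors, which build the complexes without being subunits, 17 rose and 3 fell in TRIM28 knockdown, with a median of 0.32, and 31 rose and 5 fell in PARP1 knockdown, with a median of 0.54. Over all tested genes 10.3% rose and 17.5% fell in TRIM28 knockdown, with a median of -0.02, and 27.1% rose and 32.2% fell in PARP1 knockdown, with a median of -0.07. Values of this and the following lists are with length and GC trends in place unless stated. With principal transcript trends removed, NDUFAF3 and NDUFAF8 no longer passed in PARP1 knockdown, at 0.22 and -0.24. NDUFAF2 and NDUFAF5 stayed higher there, at 0.27 and 1.46. COA3, an assembly factor of complex IV, rose by 0.67 ± 0.15 in TRIM28 knockdown and by 1.25 ± 0.15 in PARP1 knockdown. TTC19, which acts on complex III, fell by 0.68 ± 0.14 and 1.46 ± 0.15 there, NUBPL, an iron-sulfur factor of complex I, by 0.93 ± 0.27 and 1.38 ± 0.28, and LRPPRC, which stabilises mitochondrial mRNAs, by 0.48 ± 0.18 and 0.70 ± 0.19.

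Of the 13 subunits encoded by the mitochondrial genome, 0 passed in TRIM28 knockdown by edgeR, with a median of 0.20. At an unadjusted p under 0.05, 2 were higher and 1 lower there, and DESeq2 called 2 higher and limma 0. In PARP1 knockdown 1 rose, MT-ND3, by 0.39 ± 0.14, and 8 fell, with a median of -0.34. In either direction 27.8% of all tested genes passed in TRIM28 knockdown and 59.3% in PARP1 knockdown. MT-ND5, a proton-pumping subunit of complex I, stood at 264, 322 and 264 CPM in TRIM28 knockdown and at 187, 165 and 151 CPM in PARP1 knockdown, against 367, 314 and 213 CPM in control, and fell by 0.83 ± 0.16 in PARP1 knockdown. All PARP1 knockdown libraries lay below the controls for MT-ND5, and the controls themselves were widely spread. The libraries were made from polyadenylated RNA.

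Of 15 tested genes that transcribe respiratory and mitochondrial genes, 0 rose and 4 fell in TRIM28 knockdown, and 2 rose and 9 fell in PARP1 knockdown, with medians of -0.36 and -0.85. Summed over this list, the libraries ran from 408 to 424 CPM in TRIM28 knockdown, below the 465 to 492 CPM of control. In PARP1 knockdown they ran from 481 to 519 CPM, which overlaps control, so the summed level was not lower there. The shares of all tested genes that fell were 17.5% in TRIM28 knockdown and 32.2% in PARP1 knockdown, and 10.3% and 27.1% rose. The count of 0 was also 0 at an unadjusted p under 0.05 by edgeR, by DESeq2 and by limma. SP1 fell by 1.49 ± 0.19 in TRIM28 knockdown and by 1.82 ± 0.20 in PARP1 knockdown. ESRRA, a nuclear receptor of respiratory genes, rose by 0.87 ± 0.14 in PARP1 knockdown, and POLRMT, the mitochondrial RNA polymerase, rose 2.01-fold. Of 17 tested electron carriers and other ubiquinone reductases, 6 rose and 0 fell in TRIM28 knockdown, and 9 rose and 4 fell in PARP1 knockdown. In TRIM28 knockdown 3 of the 17 were lower at an unadjusted p under 0.05 by edgeR, 0 by DESeq2 and 1 by limma after adjustment.

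Of 6 tested hypoxia-linked genes, 2 rose and 2 fell in TRIM28 knockdown, and 3 rose and 2 fell in PARP1 knockdown. EPAS1, the hypoxia-inducible factor known to be active in cells without VHL, fell by 0.72 ± 0.17 in TRIM28 knockdown and by 1.66 ± 0.17 in PARP1 knockdown, and HIF1A by 0.70 ± 0.17 and 1.42 ± 0.17. Of 12 tested kidney epithelial genes, 3 rose and 4 fell in TRIM28 knockdown, and 3 rose and 5 fell in PARP1 knockdown. Beside both of these lists, 27.8% of all tested genes passed in either direction in TRIM28 knockdown and 59.3% in PARP1 knockdown.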

How the data were processed

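Polyadenylated RNA of 9 libraries was sequenced after directional library preparation, per the labels' protocols. The deposited table gives raw read counts per gene, made with Trim Galore 0.6.6, STAR 2.7.9a and featureCounts 2.0.1 on GRCh38, per the submitters' processing notes. For the annotation release and strand setting, nothing is given in the sources used here. The deposited FPKM are the authors' counts divided by the deposited summed exon length and library total. The main test on these counts was that of edgeR 4.0.16 under R 4.3.3 (TMM, filterByExpr, quasi-likelihood, 1 fit over 3 groups, 6 residual degrees of freedom, Benjamini-Hochberg adjustment over 13562 genes). The common biological coefficient of variation was 0.149. The fits were first tested on simulated counts with known changes. Alternatives were DESeq2 1.42.0 and its size factors, library totals, limma 3.58.1 on log2(FPKM + 1) and log2(FPKM + 0.1), no filter, 2 groups only, a replicate block, leaving out each library, and lowess trends (span 0.3) on length or on length and GC removed per library. Trends on principal transcripts (GENCODE 29) were added after seeing the data. Members and lists were chosen with earlier results of these data known. Named genes were catalytic or redox subunits, isoform pairs, complex II, the smallest adjusted p-values per complex and direction, genes that fell, those differing most between knockdowns, and the highest and lowest control levels. 1 member enters the counts and medians but is not reported here by itself.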

Additional observations from a re-analysis of the deposited data

How the results depend on the processing

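The 51 members higher in TRIM28 knockdown became 19 with library totals, 18 and 17 with limma on log2(FPKM + 1) and log2(FPKM + 0.1), 32 and 18 after removing trends on length and GC or on length, 20 with principal transcript trends removed, and 7 to 66 when 1 library was left out. The 1 lower member became 2 with library totals, 2 with only the 2 groups compared, 0 with length and GC trends removed, 2 with principal transcript trends removed, and 1 to 2 when 1 library was left out. The 71 higher in PARP1 knockdown became 40 with principal transcript trends removed. The 3 lower there became 5 with library totals, 5 with either limma fit, 1 after removing length and GC trends, and 5 after removing the length trend. In TRIM28 over PARP1 knockdown the 3 higher became 5 with library totals, with either limma fit and with the length trend removed, and 2 to 3 when 1 library was left out. The 44 lower became 20 with library totals, 17 and 19 with the limma fits, 26 with only the 2 groups compared, 27 with the length trend removed, 19 with principal transcript trends removed and 20 to 58 when 1 library was left out. DESeq2, its size factors and no filter on low counts kept each count within 1.5 times. With each group's mean subtracted, same-numbered libraries of different groups had correlations of -0.0814 to 0.141. Libraries with different numbers had -0.164 to 0.118. The labels do not say that the numbers pair libraries, and such correlations cannot settle it. The replicate block gave 55 higher and 1 lower, 71 and 3, and 3 and 42. The cause of these shifts was not tested. Removing length and GC trends changed the sign in TRIM28 knockdown of ATP5F1A (0.22), COX8A (-0.27), CYC1 (-0.068), NDUFA5 (0.016), NDUFB7 (-0.061) and UQCRC2 (0.073), in PARP1 knockdown of COX8A (-0.16), NDUFA5 (0.32), NDUFB10 (-0.083) and NDUFB7 (-0.060), and in TRIM28 over PARP1 knockdown of NDUFB10 (0.13). Removing the length trend changed the sign in TRIM28 knockdown of ATP5F1A (0.15), ATP5F1C (-0.011) and COX8A (-0.059), in PARP1 knockdown of ATP5F1B (-0.020), ATP5F1C (-0.36), NDUFA5 (0.31) and SDHD (-0.22), and in TRIM28 over PARP1 knockdown of the complex II median (0.085). Library totals changed the sign in PARP1 knockdown of ATP5F1C (-0.23), NDUFV3 (-0.11) and SDHD (-0.21), and in TRIM28 over PARP1 knockdown of the complex II median (0.098). Limma on log2(FPKM + 0.1) changed the sign in PARP1 knockdown of ATP5F1C (-0.23), NDUFV3 (-0.11) and SDHD (-0.21), and in TRIM28 over PARP1 knockdown of the complex II median (0.10). Limma on log2(FPKM + 1) changed the sign in PARP1 knockdown of ATP5F1C (-0.23), NDUFV3 (-0.090) and SDHD (-0.20), and in TRIM28 over PARP1 knockdown of the complex II median (0.096). Removing principal transcript trends changed the sign in TRIM28 knockdown of ATP5F1A (0.31), ATP5F1D (-0.10), ATP5IF1 (-0.15), ATP5MC1 (-0.062), ATP5MC2 (-0.000222), COX4I1 (-0.025), COX8A (-0.31), CYC1 (-0.12), NDUFB10 (-0.026), NDUFB7 (-0.13), NDUFS3 (-0.00936), NDUFS7 (-0.14), NDUFS8 (-0.097) and UQCRC2 (0.00493), in PARP1 knockdown of ATP5F1C (-0.10), ATP5F1D (-0.27), ATP5IF1 (-0.018), COX4I1 (-0.11), COX6B1 (-0.023), COX8A (-0.25), CYC1 (-0.031), NDUFA7 (-0.00948), NDUFB10 (-0.24), NDUFB7 (-0.18), NDUFS7 (-0.19) and NDUFS8 (-0.057), and in TRIM28 over PARP1 knockdown of ATP5F1D (0.17), COX4I1 (0.082), COX6B1 (0.048), NDUFB10 (0.22), NDUFB7 (0.056) and NDUFS7 (0.059).

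The 3 libraries of a group limit the precision, and a member that did not pass is not shown to be level. The principal transcript setting was chosen after seeing the data.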
